A study of Mus musculus with 6 samples.

Results

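The 36 genes described here encode proteins of the cell cycle and of DNA replication, and were taken as a fixed list of symbols, 19 for replication licensing and the passage from G1 to S phase and 17 for mitosis. All 36 were found on the array, among 21367 genes with a symbol, and 32 of them entered the genotype comparison. The arrays held liver RNA of 6 mice, 3 of the Itpr2KO group and 3 of the wild-type (WT) group. Itpr2 encodes an inositol trisphosphate receptor, a channel through which the endoplasmic reticulum lets calcium out. All mice were C57Bl/6, were 23 months old, ate a standard diet in a specific pathogen-free facility and, as a survival cohort, received no treatment. The labels do not say how the Itpr2 allele was made or whether it is lost from the whole body, and the liver was taken as bulk tissue, snap-frozen.

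A cell that leaves rest makes D-type and E-type cyclins, which release the E2F factors that switch on genes for DNA synthesis. Replication is licensed when CDT1 and CDC6 load the MCM helicase at origins, and geminin blocks a second loading in the same cycle. Cyclin B with CDK1 then drives mitosis, and the spindle checkpoint holds chromosome separation until CDC20 activates the anaphase-promoting complex. Adult hepatocytes seldom divide, and many are polyploid, so RNA of these genes in liver can also come from the blood, immune and stromal cells in the tissue.

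Each value below is a level, the log2 processed signal of a probe minus the 75th percentile of its array, so that a negative level lies below that percentile. Genotype differences are log2 changes, Itpr2KO minus WT, with the standard error (SE) from limma, a linear model for arrays fitted over 18004 genes. The adjusted p is by Benjamini-Hochberg with a threshold of 0.05. Between 57.4% and 59.4% of probes were well above background per array, and precision is limited by having 3 arrays per genotype. All 10 hepatocyte markers were above background on all 6 arrays. Skeletal muscle RNA set 2 arrays apart, since Acta1, the actin of skeletal muscle, stood at 4.05 on KO 3 and 3.90 on WT 1, against levels no higher than -4.93 on the other 4. The medians of the 2 member sides and of some other lists, and the changes of some members, are given with and without these arrays. The Itpr2 probe read 2.54, 2.38 and 2.20 in Itpr2KO livers, against 3.04, 3.07 and 3.08 in WT livers, a log2 change of -0.69 (limma, adjusted p = 0.813). Where this probe lies with respect to the knocked-out sequence is not stated, so it does not check the labels.

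The promoters of the mitotic genes differed in their motifs from those of the licensing and G1-S genes. RefSeq promoters of assembly GRCm38.p6, running from 250 bases before to 50 after a start, were matched for 28 of the 36 genes, 29 promoters in all. They were searched on both strands for the cell cycle homology region of mitotic promoters (CHR, spelled TTTGAA or spelled TTCGAA), for the CCAAT box, and for the E2F word TTGGCGC with its variants, namely TTCCCGC, the variant TTGCCGC and the variant TTCGCGC. A CHR word stood in 11 of 13 promoters of mitotic genes (84.6%), in 3 of 16 promoters of licensing and G1-S genes (18.8%) and in 19.2% of all 32851 promoters. An E2F word stood in 3 of 13 mitotic promoters (23.1%), in 10 of 16 licensing and G1-S promoters (62.5%) and in 9.57% of all promoters. CCAAT stood in 12 of 13 (92.3%) and 10 of 16 (62.5%), against 37.4% of all promoters. Matches of different motifs overlapped in 3 of 29 member promoters and in 0.597% of all. The 150 bases before the start are shown 5′ to 3′ on the gene's strand for 4 mitotic and 3 MCM helicase genes, the roles contrasted below, with matches in capitals.
Cdc20, chr4:118437344-118437493, minus strand: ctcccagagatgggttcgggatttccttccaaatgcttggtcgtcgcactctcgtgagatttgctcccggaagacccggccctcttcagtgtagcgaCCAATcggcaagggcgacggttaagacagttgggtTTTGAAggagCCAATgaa
Kif11, chr19:37376232-37376381, plus strand: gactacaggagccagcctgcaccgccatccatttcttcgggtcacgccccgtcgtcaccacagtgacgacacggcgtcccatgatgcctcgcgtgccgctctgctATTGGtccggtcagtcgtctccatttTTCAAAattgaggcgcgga
Top2a, chr11:99024190-99024339, minus strand: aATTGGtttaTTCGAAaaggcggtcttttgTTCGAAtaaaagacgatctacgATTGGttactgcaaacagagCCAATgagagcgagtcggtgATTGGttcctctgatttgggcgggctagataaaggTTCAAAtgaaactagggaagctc
Mki67, chr7:135716380-135716529, minus strand: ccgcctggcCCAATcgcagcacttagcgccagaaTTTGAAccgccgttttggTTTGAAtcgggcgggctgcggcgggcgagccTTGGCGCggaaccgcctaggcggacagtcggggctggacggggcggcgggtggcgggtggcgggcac
Mcm5, chr8:75109359-75109508, plus strand: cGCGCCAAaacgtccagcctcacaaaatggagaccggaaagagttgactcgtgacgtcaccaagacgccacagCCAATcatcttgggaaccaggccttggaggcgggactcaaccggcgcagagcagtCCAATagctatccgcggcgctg
Mcm6, chr1:128359706-128359855, minus strand: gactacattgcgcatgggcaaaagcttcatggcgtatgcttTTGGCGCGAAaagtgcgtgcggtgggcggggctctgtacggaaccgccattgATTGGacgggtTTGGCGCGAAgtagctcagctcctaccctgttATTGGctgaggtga
Mcm7, chr5:138171267-138171416, minus strand: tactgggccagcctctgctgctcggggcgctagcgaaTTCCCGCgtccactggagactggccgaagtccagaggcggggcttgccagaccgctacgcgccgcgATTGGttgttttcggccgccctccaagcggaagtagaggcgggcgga
In Cdc20 and Kif11 the CHR word began at positions -18 and -19 relative to the start, while none of the 3 MCM windows held one. Mcm6 held 4 E2F matches in its window, which overlap in pairs on opposite strands and so mark only 2 stretches, each TTGGCGCGAA. Mki67 held 1 E2F match beside its 2 CHR words. Promoters not shown were less clear-cut. Mcm2 had a CHR word at -70 and no E2F word, and a second listed start of Mcm7 had a CHR word at -173. The mitotic genes Ccnb1 and Birc5 had no CHR word. In Plk1, Aurka, Bub1 and Cenpa it lay only after the start. A match describes letters only and shows no binding.

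RNA of most of these genes was above background in liver at 23 months. At least 1 probe was well above background on all 6 arrays for 30 of the 36 genes, on 5 arrays for 2 and on none for 4. The last were Ccne2 (cyclin E2, a partner of CDK2), Cdc6 (a loader of the MCM helicase), Cdc25c (a phosphatase that activates CDK1) and Aurkb (Aurora B, a kinase of dividing chromosomes). Bub1 and Top2a each missed 1 Itpr2KO array and were above background on all 3 WT arrays. Some counted genes rest on 1 probe while their other probes were at background. The further probes of Cdk1, Ccne1 and Foxm1 were above background on no array. Of the further Ccnb1 probes, one was above background on 1 Itpr2KO and 1 WT array and the other on none. On the licensing and G1-S side 17 of 19 genes were above background on all arrays, and on the mitotic side 13 of 17. With the software's less strict mark of a positive and significant signal, 32 genes were above background on all arrays. The 4 genes at background give no comparison, and the 32 others passed a filter that needs all 3 arrays of at least 1 genotype.

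No member differed between the genotypes past the threshold. In limma 0 of 32 members had an adjusted p under 0.05, where 0.00555% of all genes did, and their adjusted p ran from 0.813 to 0.998. Of all genes, 6.12% had an unadjusted p under 0.05. Among the members there was 1 such gene with a higher mean in Itpr2KO livers (Mcm7; 3.45% of all genes) and 1 with a lower mean (Ccnd1; 2.66% of all genes). The same genes were the only ones whose arrays did not overlap between genotypes, 1 of 32 with all Itpr2KO arrays above all WT arrays (6.85% of all genes) and 1 of 32 with all below (5.11%). Means were higher in Itpr2KO livers for 16 members and lower for 16, with a median log2 change of -0.03, where all genes had a median of 0.02 and 54.1% with a higher mean. Centring arrays on their median in place of the 75th percentile gave 12 members and 39.4% of all genes a higher mean. In bulk tissue, fewer cells of a type and less RNA per cell cannot be told apart, here and in what follows.

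**Figure D1:**
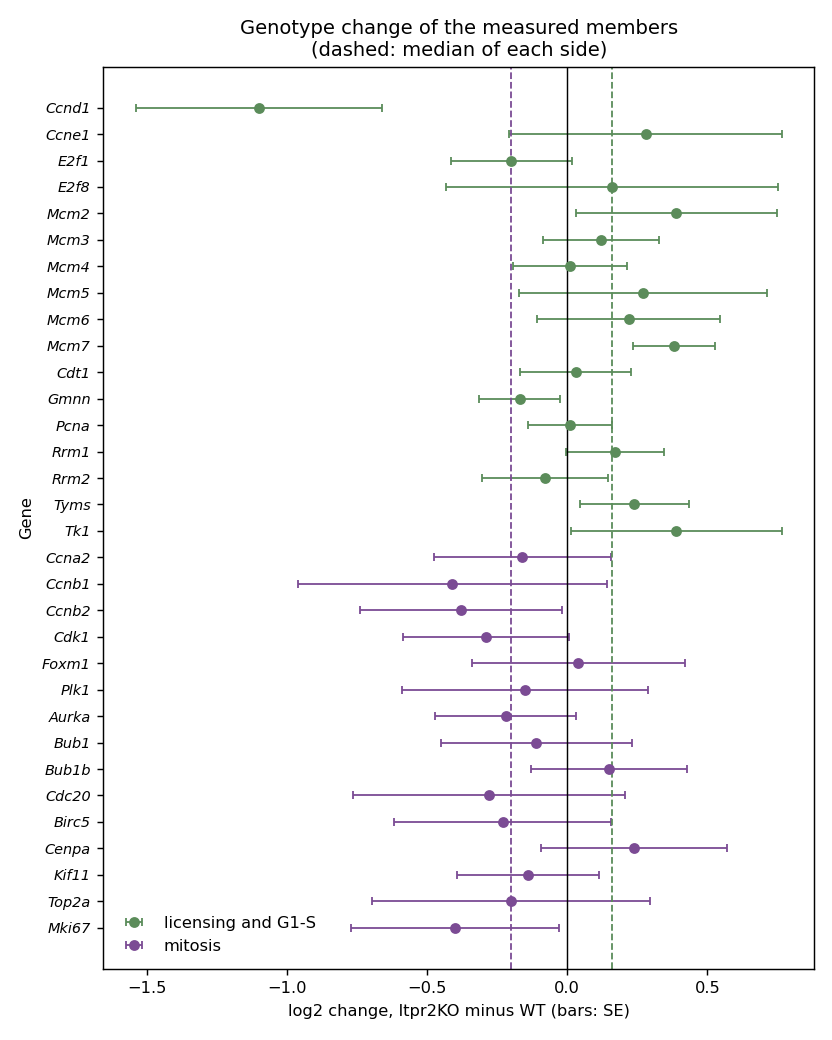
Log2 change, Itpr2KO minus WT, on the x axis for each of the 32 measured genes, with bars for the SE (3 arrays per genotype), licensing and G1-S genes in green and mitotic genes in purple. The dashed lines are the medians of the sides, 0.16 for licensing and G1-S and -0.20 for mitosis, and Ccnd1 lies farthest from 0.

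Of the G1 cyclins and E2F factors, cyclin D1 had the largest change, also over all 32 members. Ccnd1, the partner of CDK4 and CDK6 that carries growth signals into the cycle, read 2.54, 3.75 and 4.32 in Itpr2KO livers, against 4.47, 4.88 and 4.56 in WT livers. Every Itpr2KO array lay below every WT array, with KO 1 far below and KO 3 just under WT 1. The mean was 3.54 ± 0.912 in Itpr2KO livers and 4.64 ± 0.217 in WT livers (SD, n = 3 each), a ratio of 0.466. The log2 change of -1.10 ± 0.440 (SE) had an adjusted p of 0.813 in limma and an exact two-sided permutation p of 0.1, the smallest that 3 against 3 arrays can give. Within slide 1, where KO 1 was the only Itpr2KO array, the difference was -2.14, and within slide 2, where WT 3 was the only WT array, it was -0.52. Without KO 1 it was -0.60, without KO 3 and WT 1 it was -1.58, and with normexp background correction it was -1.78.

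The remaining genes of this role overlapped between genotypes. Ccne1, cyclin E1, had a log2 change of 0.28 ± 0.487 (limma, adjusted p = 0.927), with KO 2 the lowest array and KO 3 the highest. E2f1, an activator of S-phase genes, had -0.20 ± 0.216 (limma, adjusted p = 0.872). E2f8, a repressor E2F that in mouse liver takes part in making hepatocytes polyploid, had 0.16 ± 0.593 (limma, adjusted p = 0.971). Its levels were -0.14, -1.06 and -2.36 in Itpr2KO livers, against -2.04, -1.17 and -0.82 in WT livers. KO 1 was the highest array and KO 3 the lowest, whereas KO 3 was the highest array for 20 of the 32 members. Among WT mice WT 1 was lowest and WT 3 highest, the order that the licensing and G1-S genes had as a group. Its difference was 1.46 within slide 1 and -0.89 within slide 2.

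All 6 subunits of the MCM helicase, which unwinds DNA at origins, had log2 changes at or above 0.01, with a median of 0.25. Mcm4 turned to -0.07 under median scaling and to -0.01 with the percentile taken over spots. Without KO 3 and WT 1, 5 of the 6 turned negative, with changes of -0.20 for Mcm2, -0.17 for Mcm3, -0.22 for Mcm4, -0.39 for Mcm5 and -0.27 for Mcm6. Without KO 3 alone Mcm3, Mcm4, Mcm5 and Mcm6 were negative, at -0.08, -0.12, -0.23 and -0.13. Mcm7 read 1.36, 1.35 and 1.67 in Itpr2KO livers, against 1.06, 0.98 and 1.21 in WT livers. Every Itpr2KO array lay above every WT array, although KO 2 and WT 3 stood close together. Mcm7 averaged 1.46 ± 0.180 in Itpr2KO livers and 1.08 ± 0.120 in WT livers (SD, n = 3 each), a ratio of 1.30. Its log2 change of 0.38 ± 0.147 had an adjusted p of 0.813 in limma and an exact permutation p of 0.1, and it was 0.34 within slide 1 and 0.30 within slide 2. Without KO 3 and WT 1 Mcm7 had a change of 0.26, and with normexp background correction one of 0.01.

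The largest MCM change, 0.39 ± 0.359, was that of Mcm2 (limma, adjusted p = 0.860). Its levels were -2.13, -2.26 and -1.43 in Itpr2KO livers, against -3.01, -2.15 and -1.83 in WT livers. The genotypes overlapped, with WT 1 the lowest array and KO 3 the highest. Without WT 1 the change of Mcm2 was 0.05, and without KO 3 it was 0.13. Mcm3 had a change of 0.12 ± 0.207, Mcm4 of 0.01 ± 0.205, Mcm5 of 0.27 ± 0.442 and Mcm6 of 0.22 ± 0.327. KO 3 was the highest of the 6 arrays for 5 of the 6 subunits, with Mcm6 at 1.85 there, against 0.70 and 0.89 in the other Itpr2KO livers and 0.64 to 1.21 in WT livers.

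Among the licensing factors, Cdt1, which brings the helicase to origins, read -0.09, -0.01 and 0.39 in Itpr2KO livers, against -0.07, -0.11 and 0.36 in WT livers. KO 3 and WT 3 were both high and the others sat close to 0, so the genotypes overlapped, with a log2 change of 0.03 ± 0.198. Gmnn, geminin, the inhibitor of CDT1, read -2.02, -1.65 and -1.79 in Itpr2KO livers, against -1.76, -1.63 and -1.55 in WT livers. These ranges overlapped too, with a change of -0.17 ± 0.146 (limma, adjusted p = 0.852).

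The 5 genes for nucleotide supply and the sliding clamp had log2 changes between -0.08 and 0.39, with a median of 0.17. Pcna, the clamp that holds polymerases on DNA, read 2.53, 2.67 and 2.34 in Itpr2KO livers, against 2.39, 2.43 and 2.69 in WT livers. Its highest and lowest arrays were WT 3 and KO 3, and its log2 change was 0.01 ± 0.150 (limma, adjusted p = 0.995). Tk1, thymidine kinase, read 0.95, 2.33 and 2.12 in Itpr2KO livers, against 1.54, 1.09 and 1.60 in WT livers. KO 2 and KO 3 exceeded all WT arrays while KO 1 lay below them, with a change of 0.39 ± 0.375 that was -0.36 within slide 1 and 0.62 within slide 2. The subunits of ribonucleotide reductase had changes of 0.17 ± 0.174 (Rrm1) and -0.08 ± 0.224 (Rrm2), and Tyms, thymidylate synthase, one of 0.24 ± 0.196.

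**Figure D2:**
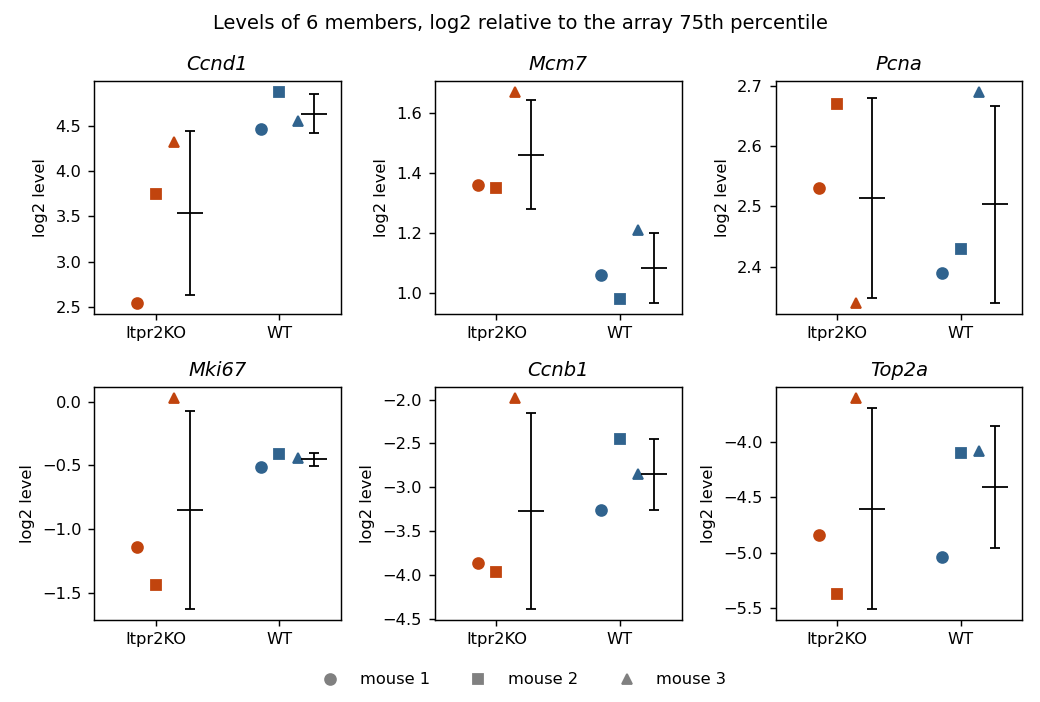
Levels of 6 genes on a log2 scale relative to the array 75th percentile, one point per mouse with Itpr2KO left and WT right, and mean and SD (n = 3) as bars; each panel has its own y range. Genotypes are apart for Ccnd1 and Mcm7, while for Mki67, Ccnb1 and Top2a KO 3 is the highest mouse and the other Itpr2KO mice lie among the lowest 3.

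Mitotic genes had no member with an unadjusted p under 0.05 in limma, and their changes ran from -0.41 to 0.24. Of the cyclins, kinases and entry factors of mitosis, Ccnb1, cyclin B1, had a log2 change of -0.41 ± 0.552 (limma, adjusted p = 0.897). It read -3.86, -3.97 and -1.98 in Itpr2KO livers, against -3.26, -2.45 and -2.85 in WT livers. KO 3 stood above all WT arrays, and KO 1 and KO 2 stood below them. The change of Ccnb1 was -1.06 without KO 3 and -1.26 without KO 3 and WT 1. Ccnb2, cyclin B2, read -1.61, -1.93 and -0.61 in Itpr2KO livers, against -1.28, -0.67 and -1.06 in WT livers. It repeated that order, with KO 3 on top and a change of -0.38 ± 0.360 (limma, adjusted p = 0.865).

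The others of this role had changes between -0.29 and 0.04. Cdk1, the kinase that cyclin B activates, had -0.29 ± 0.297, and Ccna2, cyclin A2, which acts from S phase to early mitosis, -0.16 ± 0.315. Plk1, a kinase of mitotic entry and spindle assembly, had -0.15 ± 0.438, and Aurka, Aurora A of the spindle poles, -0.22 ± 0.251. Foxm1, a transcription factor of G2 and M phase genes, had 0.04 ± 0.380 (limma, adjusted p = 0.990), which turned to -0.04 under median scaling. In 5 of the 7 genes of this role KO 3 was the highest array, and in the other 2 it was WT 2.

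The checkpoint genes followed the mice in the same way. Cdc20, the activator of the anaphase-promoting complex, read -2.09, -1.65 and -0.46 in Itpr2KO livers, against -1.66, -0.46 and -1.24 in WT livers. KO 3 and WT 2 were level at the top. KO 1 was lowest, below all WT arrays, and KO 2 lay just above WT 1, so the genotypes overlapped in part. The log2 change was -0.28 ± 0.485, with -1.02 within slide 1 and 0.19 within slide 2. The checkpoint kinases had changes of -0.11 ± 0.340 (Bub1, above background on 2 of 3 Itpr2KO arrays) and 0.15 ± 0.278 (Bub1b).

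Of the chromosome and spindle genes, Mki67, the Ki-67 protein that coats mitotic chromosomes and marks cycling cells, read -1.14, -1.44 and 0.03 in Itpr2KO livers, against -0.51, -0.41 and -0.44 in WT livers. WT mice lay within 0.10 of each other, with KO 3 above them and KO 1 and KO 2 below. It averaged -0.85 ± 0.778 in Itpr2KO livers and -0.45 ± 0.0534 in WT livers (SD, n = 3 each), a change of -0.40 ± 0.371 with an adjusted p of 0.862 in limma and an exact permutation p of 0.4. Without KO 3 the change was -0.84 (limma, adjusted p = 0.351, and 0.351 to 1 over all alternatives with a test). A second Mki67 probe gave -0.35 with the same order of Itpr2KO mice. Birc5, survivin, of the complex that corrects chromosome attachment, read -0.62, -0.99 and 0.31 in Itpr2KO livers, against -0.65, 0.29 and -0.26 in WT livers.

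KO 3 and WT 2 were again level at the top for Birc5, whose change was -0.23 ± 0.388. Its second probe gave -0.31, and its last probe, above background on 0 of 3 Itpr2KO and 2 of 3 WT arrays, -0.80. Top2a, the topoisomerase that untangles sister chromosomes, read -4.84, -5.37 and -3.60 in Itpr2KO livers, against -5.04, -4.10 and -4.08 in WT livers. Both genotypes held a high and a low mouse, and the KO 2 value was not well above background. The change of Top2a was -0.20 ± 0.495 (limma, adjusted p = 0.950). Kif11, the kinesin that pushes spindle poles apart, had -0.14 ± 0.255, and Cenpa, the histone of centromeres, 0.24 ± 0.332 with KO 2 as its highest array.

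**Figure D3:**
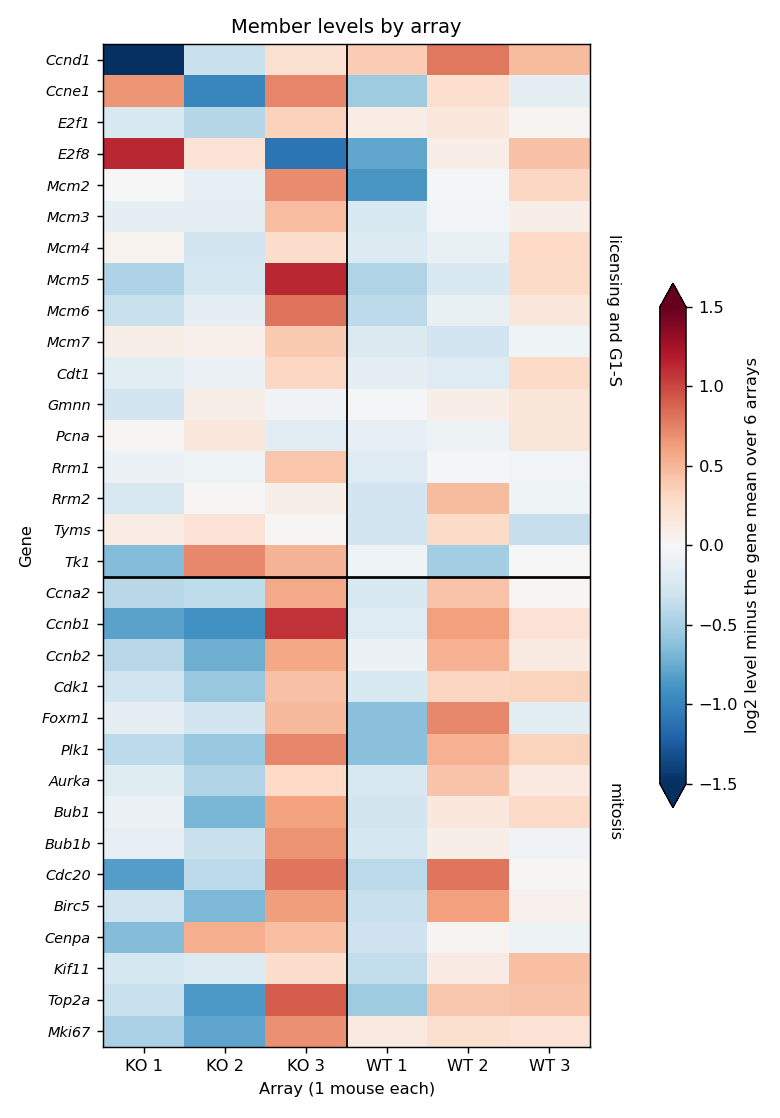
Level of each of the 32 measured genes on each array minus that gene's mean over the 6 arrays (log2 colour scale, red above and blue below), Itpr2KO mice left of WT mice and licensing and G1-S genes above mitotic genes. In the mitotic block the KO 3 and WT 2 columns are mostly red and the KO 1, KO 2 and WT 1 columns mostly blue.

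Set against each other, the sides leaned apart by genotype while the mice within a genotype varied more. Licensing and G1-S genes had a median log2 change of 0.16, with a higher mean in Itpr2KO livers for 13 of 17, against 10 of 17 under median scaling and 11 of 17 with the percentile over spots. Mitotic genes had a median of -0.20, with a lower mean for 12 of 15, where 45.9% of all genes had a lower mean. Bub1 and Top2a, 2 of the 12, passed the filter through their WT arrays alone, and 10 of the 13 above background on all arrays had a lower mean. The difference of the medians was 0.35, with 0.35 within slide 1 and 0.23 within slide 2. Per array, from levels minus each gene's mean, the difference of the sides was 0.20, 0.48 and -0.25 in Itpr2KO livers. In WT livers it was 0.07, -0.44 and 0.03, so the genotypes overlapped, with KO 3 inside the WT range. Within slides the licensing and G1-S median was 0.00 and 0.02 and the mitotic median -0.34 and -0.21. With normexp background correction the mitotic median turned to 0.96, with 0 of 15 genes lower, and the difference to -0.85. These medians describe the lists and carry no test.

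These medians depended on single arrays of both genotypes. Without KO 3 the licensing and G1-S median was -0.08, with 7 of 17 genes higher, while the mitotic median was -0.55. Without WT 1 the licensing and G1-S median was 0.03, with 9 of 17 genes higher, and the mitotic median was -0.43. Without KO 1, KO 2 or WT 2, in that order, the mitotic median was -0.08, -0.01 or -0.05, with 9, 8 or 8 of 15 genes lower. The median of all members was then 0.01, 0.09 or 0.04, and without WT 3 it was 0.03. With the slide as a block the licensing and G1-S median was 0.03, with 10 of 17 genes higher. Without KO 3 and WT 1, the arrays with muscle RNA, the licensing and G1-S median was -0.20 with 5 of 17 genes higher, the mitotic median was -0.76 with 15 of 15 genes lower, and 0 members passed the threshold in limma.

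Mouse by mouse, mitotic genes shifted together. Taking each gene's level minus its own mean, the median over mitotic genes was -0.33, -0.57 and 0.60 in Itpr2KO livers, against -0.28, 0.42 and 0.14 in WT livers. KO 3 was the highest mouse and KO 2 the lowest, so the Itpr2KO group held both ends. The group means, -0.10 ± 0.617 in Itpr2KO livers and 0.09 ± 0.353 in WT livers (SD, n = 3 each), lay closer together than either SD. Licensing and G1-S genes gave -0.14, -0.09 and 0.35 in Itpr2KO livers, against -0.21, -0.02 and 0.17 in WT livers, a smaller spread with KO 3 again on top. Over all genes the same median stayed between -0.03 and 0.03.

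The array KO 3 held the highest level for 11 of 15 mitotic genes and 9 of 17 licensing and G1-S genes, where it did so for 27.2% of all genes. KO 3 also had the lowest 75th percentile of processed signal over spots, 278, against 359 to 394 on the others. Subtracting a lower percentile can raise the level of probes near background. Of the genes at background, Ccne2 and Cdc25c read highest on KO 3, Aurkb on WT 2, and Cdc6 differed between its probes. The part of this in the levels on KO 3 was not tested. The lowest level lay on KO 2 for 9 of 15 mitotic genes, against 17.1% of all genes, and on KO 1 or WT 1 for 3 each. A mitotic gene spanned a median range of 1.28 among Itpr2KO mice and 0.66 among WT mice, against 0.49 and 0.30 for all genes. The residual SD of the fit had a median of 0.535 for mitotic genes, 0.289 for licensing and G1-S genes and 0.230 for all genes.

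Of the marker lists for blood and immune cells, 3 had KO 3 as their highest mouse by summed level and 2 did not. The T and NK cell markers, 9 of 12 measured, had a log2 summed level of 2.66, 2.95 and 4.04 in Itpr2KO livers, against 3.06, 3.36 and 3.75 in WT livers, with Ncr1 above background on no array. By this sum KO 3 was the highest mouse and KO 1 and KO 2 the lowest. Such a sum leans on the brightest genes, and on KO 3 the brightest was Cd4, at 2.80 there, against 1.59 on WT 3. By the median of the list KO 3 and WT 3 were nearly level, at 0.66 and 0.65. The highest array was KO 3 for 4 of the 9 genes and WT 3 for 3. B and plasma cell markers, 7 of 9 measured and Pax5 on no array, summed to 3.79, 3.80 and 4.81 in Itpr2KO livers, against 4.09, 4.13 and 3.46 in WT livers. KO 3 was again on top, but WT 3 was lowest. The brightest gene of this list on every array was Sdc1, which stayed between 3.29 and 3.44. Erythroid markers, 8 of 10 measured and Rhag on no array, summed to 7.18, 6.71 and 7.61 in Itpr2KO livers, against 6.71, 6.91 and 7.18 in WT livers.

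Erythroid markers thus had KO 3 as the highest mouse as well. Hepatocyte markers summed to 10.15, 10.20 and 10.64 in Itpr2KO livers, against 10.10, 9.96 and 10.22 in WT livers. They too were highest on KO 3. Neutrophil markers, 8 of 9 measured, ran another way, at 5.97, 2.64 and 5.30 in Itpr2KO livers, against 3.84, 3.23 and 4.05 in WT livers, with KO 1 highest for 8 of 8. Markers of Kupffer cells, the resident macrophages, summed to 7.19, 6.76 and 7.08 in Itpr2KO livers, against 8.11, 7.12 and 7.73 in WT livers. Their highest mouse was WT 1, and all 9 had a lower mean in Itpr2KO livers, as 45.9% of all genes did. In limma 4 of them had an unadjusted p under 0.05, where 2.66% of all genes were lower with such a p. None passed the adjusted threshold. Endothelial markers were lowest on KO 3. The part of any of these cells in the levels of mitotic genes was not tested. Muscle RNA was on KO 3, where mitotic genes were high, and on WT 1, where they were low.

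**Figure D4:**
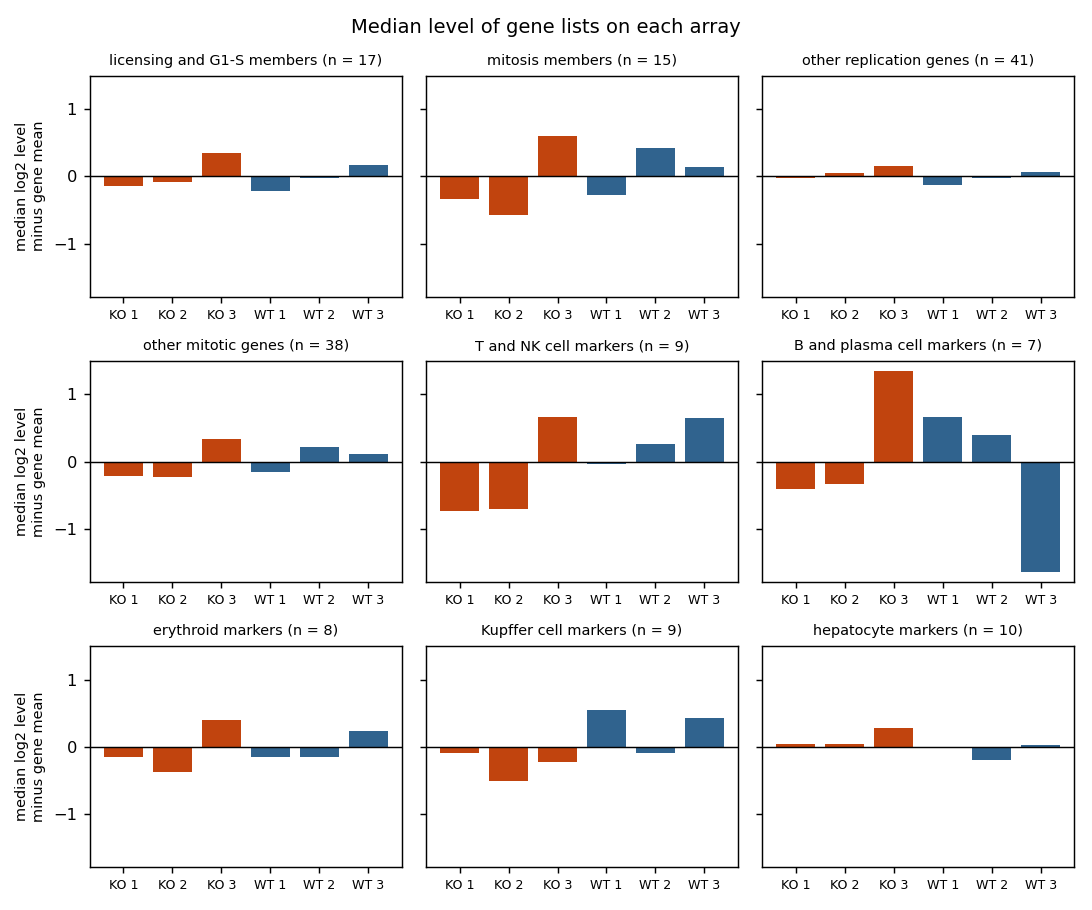
Median over each gene list of the log2 level minus the gene's mean, one bar per mouse with Itpr2KO mice (orange) left of WT mice (blue), all panels on the same y axis; n is the number of genes measured. KO 3 is the highest mouse in every panel but that of Kupffer markers. It stands at 0.35 for licensing and G1-S members, 0.60 for mitotic members, 0.16 for other replication genes and 0.34 for other mitotic genes. For T and NK, B and plasma, erythroid and hepatocyte markers it stands at 0.66, 1.35, 0.40 and 0.28. WT 3 is at 0.65 for T and NK. Kupffer markers are highest on WT 1, at 0.54, against -0.23 on KO 3.

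Other genes of the pathway, from lists of textbook replication, mitosis and G1 control genes, had 0 genes past the threshold in limma. Of 46 other replication genes 43 were above background on at least 1 array and 41 were measured, 32 with a higher and 9 with a lower mean in Itpr2KO livers, with a median log2 change of 0.10. That median was 0.04 without KO 3 or without WT 1, 0.02 without both and 0.02 under median scaling. Brca2, which loads the recombinase at broken forks, had the only unadjusted p under 0.05, reading -2.52, -2.22 and -2.33 in Itpr2KO livers, against -2.66, -2.80 and -2.74 in WT livers. The genotypes did not overlap for Brca2, with a change of 0.38 ± 0.133 (limma, adjusted p = 0.813). No overlap was seen for 3 higher and 1 lower of the 41 genes, against 6.85% and 5.11% of all genes. Of 58 other mitotic genes 57 were on the array, 44 were above background on at least 1 array and 38 were measured, 27 with a lower and 11 with a higher mean, with a median of -0.09. It turned to 0.02 without KO 1 and to 0.04 without KO 2, and it was -0.03 without WT 2, -0.06 without WT 3, -0.24 without WT 1, -0.33 without KO 3 and -0.50 without KO 3 and WT 1.

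Kif23, a kinesin of the dividing furrow, was the one other mitotic gene with an unadjusted p under 0.05, at -5.02, -5.44 and -4.72 in Itpr2KO livers, against -4.23, -4.87 and -4.11 in WT livers. KO 3 overlapped the WT arrays, and the change was -0.66 ± 0.271 (limma, adjusted p = 0.813). KO 3 was the highest array for 24 of 37 other mitotic genes with a value on every array. In that list the median per mouse was -0.22, -0.23 and 0.34 in Itpr2KO livers, against -0.16, 0.22 and 0.12 in WT livers, the order KO 3, WT 2, WT 3 that the mitotic members had.

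Of 40 genes of G1 control, CDK inhibitors among them, 39 were measured, with 19 higher, 20 lower and a median of 0.00. The genotypes did not overlap for 3 higher and 5 lower genes, against 6.85% and 5.11% of all genes. Cdkn2a, whose products include the CDK inhibitor p16, is used as a mark of senescence. It read -1.33, -1.06 and -2.02 in Itpr2KO livers, against -0.59, -0.72 and -0.60 in WT livers. All Itpr2KO arrays lay below all WT arrays, and the change was -0.83 ± 0.251, with an adjusted p of 0.813 in limma and an exact permutation p of 0.1. E2f3, an activator E2F, had -0.43 ± 0.160 without overlap. Lin9, of the complex that binds CHR promoters, had 0.33 ± 0.138 without overlap, and Tfdp2, a partner of E2F factors, 0.69 ± 0.271 with overlap. Each of these 3 also had an adjusted p of 0.813 in limma.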

How the data were processed

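Liver RNA (100 ng per mouse) was labelled with Cy3 and hybridised to 1-colour Agilent arrays, per the labels' protocols. Intensity values in the deposited scanner tables come from Agilent Feature Extraction; the file headers name release 11.5.1.1 and the submitters' processing notes 10.7.3.1. Per the file headers, background was already subtracted from the processed intensity, which carries no scaling across arrays. An alternative was the authors' deposited log2 matrix of 20644 probes. Compared with the scanner tables, it was centred by probe on the median and ran in the direction of brighter signal. The medians of its columns were -0.0127, 0.0106 and 0.00617 for KO 1, KO 2 and KO 3 and 0.00207, -0.0094 and 0.00497 for WT 1, WT 2 and WT 3. Its columns for KO 2 and KO 3 matched the scanner tables of KO 3 and KO 2 (correlation across probes 0.9991 and 0.9992, against -0.0797 and -0.07631 with their own), and array names here follow the scanner tables.

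Control spots and 818 outlier spots were left out, and spots of a probe were averaged. The log2 intensity minus the array's 75th percentile over 39429 probes is the level. Accessions in a GRCm38.p6 gene table, used for names alone because the array design is of another build, gave 28330 probes 1 symbol, 0 several and 11099 none. The fit took probes that all 3 arrays of either genotype showed well above background (22311 probes), and each gene was read from its brightest such probe (18004 genes, 13681 with a symbol). The genotype test was two-sided, by lmFit and eBayes of limma 3.58.1 under R 4.3.3, adjusted by Benjamini-Hochberg, and single values were compared by exact permutation. The procedure was tested on simulated data. Slides 1 and 2 each held both genotypes, with KO 1, WT 1 and WT 2 on slide 1 and KO 2, KO 3 and WT 3 on slide 2, and scans followed slides. Per the series' design text the mice were independent animals.

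Alternatives were quantile and median scaling, normexp background correction, other filters and probe rules, the slide as a fixed or random block, values within slides, the replicate block, each array left out, outlier spots kept and the authors' matrix. Normexp used the median signal, since the tables read here have no mean signal column. Leaving out both arrays with muscle RNA and taking the percentile over spots were added after the data were seen. The members and lists were chosen with earlier results of these data known. Named are all members and Itpr2, up to 3 genes per direction of each other list with an unadjusted p under 0.05, and summed levels and undetected defining genes of marker lists, 1 of which is not reported here. Values on every array are given for members with an unadjusted p under 0.05 and, in each role, for those with the highest mean level and the largest change. E2f8, Mcm6, Top2a, Acta1, Cd4 and Sdc1 were added after their values were seen.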

Additional observations from a re-analysis of the deposited data

How the results depend on the processing

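Over 19 alternatives with a test, 0 of 32 members passed the threshold in limma, and the smallest adjusted p of a member was 0.138, with normexp. The count of all genes past it ran from 0 to 2. Ccnd1, Mcm7 and Tyms had the same sign under every alternative that measured them (up to 21), 10 members including these did under all but normexp, and 22 turned under at least 1 other, so signs of single members are not settled. Normexp turned the medians of the members to 0.57 and of mitosis to 0.96, with 0 mitotic genes lower, and the difference of the sides to -0.85. It moved other replication genes to 0.53, other mitotic genes to 0.72 and G1 control genes to 0.36. Its fitted background mean was -228 on KO 1, against 3.76 on KO 2, -3.81 on KO 3, -8.46 on WT 1, -13.7 on WT 2 and -5.63 on WT 3, which adds to every signal of KO 1. Without KO 3 and WT 1, chosen after seeing the data, the medians were -0.20 for licensing and G1-S (5 genes higher), -0.76 for mitosis and -0.50 for other mitotic genes; the cause was not tested. The G1 control median was -0.20 within slide 1. With single arrays left out, the licensing and G1-S median ran from -0.08 to 0.21, its count of higher genes from 7 to 13, the mitotic median from -0.55 to -0.01, the difference of the sides from 0.16 to 0.47, the median of all members from -0.21 to 0.09, the G1 control median from -0.05 to 0.10, that of other replication genes from 0.04 to 0.14 and that of other mitotic genes from -0.33 to 0.04. The replicate block left the medians of both sides at 0.16 and -0.20 and their difference at 0.35, and 0 members passed, with adjusted p in limma of 0.771 for Ccnd1 and 0.773 for Mcm7. Same-numbered arrays did not deviate together (correlations -0.191, 0.042 and -0.28). KO 3 and WT 1, the arrays with muscle RNA, had a correlation of 0.295. Deviations from the mean of 3 arrays are tied to each other, and the names of KO 2 and KO 3 differ between the deposited files. These correlations therefore cannot decide whether the numbers pair the mice.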
